A study of Arabidopsis thaliana with 9 samples.

Results

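The 189 genes described here were higher in Arabidopsis leaves after both 6 h and 48 h with BrvC than in control leaves, and carry no gene symbol in the array's annotation, only a locus name. A locus name gives the chromosome (AT1G to AT5G) and a running number of 5 digits. They were chosen from 14745 locus-named genes by the values themselves. The mean log2 signal had to lie at least 1 above control at each time, which is at least 2-fold, and all 6 treated arrays had to lie above all 3 control arrays. The locus-named genes are part of 16550 genes tested on the array.

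The samples were leaves cut from Col-0 plants of Arabidopsis thaliana at 30 days of age, with 10 to 15 leaves pooled in each sample and 1 Affymetrix array per sample. BrvC, as the labels call it, belongs to the brevicompanines, alkaloids made by fungi. The groups were leaves kept for 48 h in Murashige and Skoog medium with 50 µM BrvC (3 arrays), leaves kept in it for 6 h (3 arrays), and control leaves in that medium with the solvent, 0.05% DMSO (3 arrays). All were wild type, and treated leaves were kept in the dark. The labels describe the replicates as biological and give 1 control group, without its hours in the medium or in the dark. BrvC and these times can therefore not be told apart in a comparison with control. For the medium with BrvC, the labels give no DMSO content, so that equal DMSO in all groups is not known.

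A locus name in place of a symbol reflects the array's annotation used here, and does not mean that a gene is unstudied. In the RefSeq gene table, 187 of the 189 were found, all as protein-coding genes, and 3 had a descriptive name among their synonyms. These are AT3G10040 (HRA1, HYPOXIA RESPONSE ATTENUATOR1), AT5G61590 (DEWAX, Decrease Wax Biosynthesis) and AT5G61880 (PAM16L). In plants, transcription factors of the ethylene response factor group VII are broken down while oxygen is present and persist when oxygen is low, when they switch on genes of fermentation and energy saving. HRA1 is a trihelix transcription factor that is switched on by this pathway and dampens it. DEWAX is a transcription factor that represses genes of cuticular wax synthesis, and PAM16L resembles PAM16, a part of the motor that draws proteins into mitochondria. Other members have no described role in the sources used here and are given by locus.

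Of the 14745 locus-named genes, 1087 (7.37%) had a 6 h mean at least 1 above control and 347 (2.35%) a 48 h mean at least 1 above it. Both held for 196 genes (1.33%), and 189 of these (1.28%) also had all treated arrays above all controls, a separation that 7.1% of locus-named genes showed. The 7 left out by overlapping arrays had differences that met both limits. Just inside the threshold, AT1G14060, AT1G54770 and AT1G08360 had a smaller difference from control of 1.00 each. AT5G65880, AT1G16350 and AT1G77940, just outside it, also had 1.00 after rounding, so that the limit cuts through a continuous range. Among the members, 138 had a smaller difference under 1.5, 19 had both differences at 2 or more, and 5 had both at 3 or more.

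The median difference from control was 1.31 at 48 h (range 1.00 to 6.74) and 1.87 at 6 h (range 1.02 to 4.38). Across all 16550 genes the medians were -0.06 and -0.10. These differences chose the members and are given as a description. By limma with Benjamini-Hochberg adjustment, 189 of the members were called higher at 48 h, where 5.43% of all genes were, and 188 at 6 h, where 14.2% were, and nothing is read from those counts. Calls in either direction took in 10.6% of all genes at 48 h and 27.4% at 6 h. The exception was AT4G12731, a gene picked out here after its values were seen. It read 5.25, 4.21 and 5.88 in the 48 h leaves, 4.71, 4.65 and 4.08 in the 6 h leaves and 4.02, 2.20 and 3.59 in control leaves. One control array came within 0.05 of the lowest treated array.

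**Figure D1:**
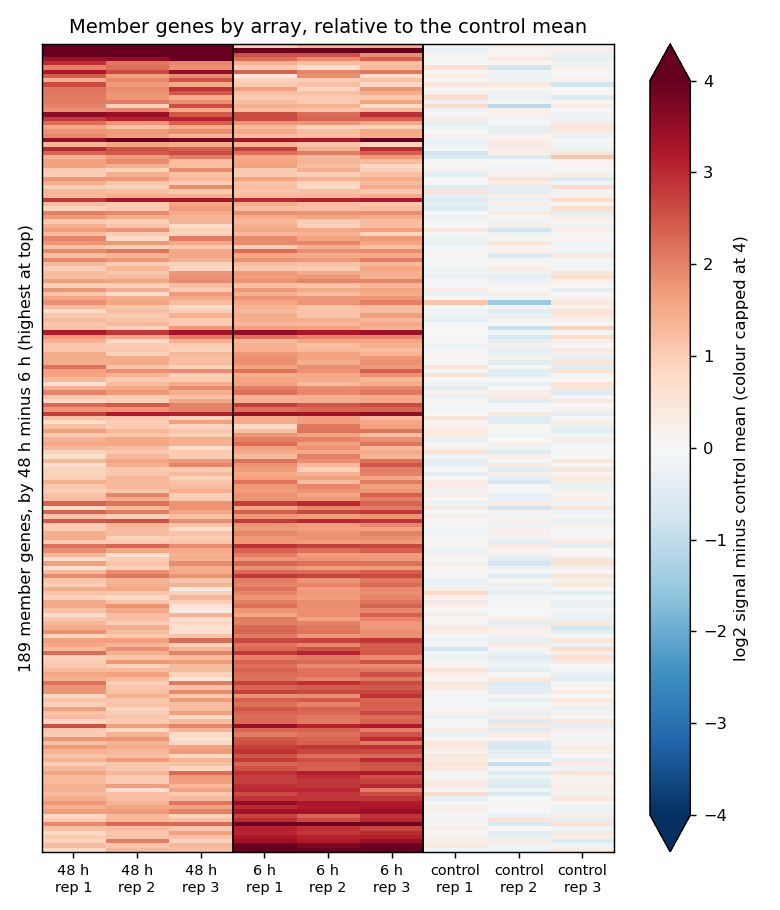
Log2 signal of each of the 189 genes on each array minus the gene's control mean, in colour, with 48 h arrays on the left, 6 h arrays in the middle and control arrays on the right. Genes run down the page from the largest positive to the largest negative 48 h minus 6 h difference, from 3.22 to -2.97, and the lower part of the plot is darker at 6 h than at 48 h.

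The scale of the arrays touches the size of the set. Over all 38408 entries of the value table, named or not, array medians were at least 4.00 at 48 h, at least 4.17 at 6 h and at most 3.93 in control, and the group means of these medians differed from control by 0.20 and 0.36. The 38408 entries include 20927 with no gene listed. Over the 16550 genes tested, the median difference from control had the opposite sign, -0.06 at 48 h and -0.10 at 6 h. When each array was centred on its median over all entries, 95 locus-named genes met the rule, all of them among the 189, and after renewed quantile normalization 119 did, again all among the 189. Such centring lowered the difference from control of every gene, although the median gene was not above control before it. The differences from control given here are on the deposited scale.

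Leaf identity was checked on markers. Of 10 mesophyll markers 2 were measured by an entry of their own, Rubisco activase RCA and the phosphoribulokinase PRK. RCA read 8.55, 8.63 and 8.27 in the 48 h leaves, 9.34, 9.17 and 9.45 in the 6 h leaves and 9.90, 10.11 and 9.69 in control leaves, and fell in limma at both times (-1.42 and -0.58, adjusted p = 0.000208 and 0.027). PRK fell at 48 h (-2.11, adjusted p = 2.89e-05) and had 0.30 at 6 h (adjusted p = 0.326), the opposite sign to RCA. In bulk samples, fewer cells of a type and less RNA per cell cannot be told apart. The guard cell regulator FMA rose at both times (0.62 and 1.20, adjusted p = 0.0326 and 0.00014), and AT1G22690, also on the guard cell list, fell (-0.97 and -0.93, adjusted p = 0.00844 and 0.00424). EXPA7, the 1 of 7 root markers measured, read 2.22 to 2.81 on all arrays, and the pollen markers VGD1 and VGDH1 read 1.62 to 3.67, with no call among the 3. None of 4 phloem and bundle sheath markers had an entry of its own. Markers not counted as measured may still lie among the 20927 entries with no gene listed or the 759 shared ones. The part of cell type changes in the members' values was not tested.

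Among the 8 members with the largest smaller difference from control, AT3G29970 stood first. It read 9.55, 9.10 and 9.94 in the 48 h leaves, 7.38, 7.31 and 6.81 in the 6 h leaves and 2.54, 2.82 and 2.99 in control leaves. The 3 groups did not overlap, and the difference from control was 6.74 at 48 h and 4.38 at 6 h. In AT5G66985 the log2 signal was 4.87, 5.65 and 5.13 at 48 h, 4.68, 4.60 and 5.35 at 6 h and 1.17, 1.59 and 1.43 in control. Its treated groups overlapped each other and lay far above control, by 3.82 and 3.48.

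AT4G12090 had values of 8.47, 8.19 and 8.64 at 48 h, 8.81, 8.54 and 8.73 at 6 h and 5.34, 5.13 and 5.46 in control. AT4G33560 had 8.09, 8.50 and 8.55 at 48 h, 8.24, 8.36 and 8.48 at 6 h and 4.78, 5.03 and 6.00 in control. The treated groups overlapped in both genes, and neither difference passed the test. The 48 h minus 6 h difference was -0.26 (SE 0.18, limma adjusted p = 0.369) for the first and 0.02 (SE 0.27, adjusted p = 0.976) for AT4G33560. Control replicate 3 of AT4G33560 was the highest of its controls, and the treated arrays all lay well above it.

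AT3G44510 gave 5.34, 5.75 and 5.61 at 48 h, 5.97, 5.90 and 6.08 at 6 h and 2.54, 2.89 and 2.18 in control leaves. Each 48 h array was below each 6 h array, by a mean of -0.42 (SE 0.20), which did not pass the test (limma adjusted p = 0.181). AT1G05700 gave 6.79, 7.07 and 7.10 at 48 h, 6.64, 6.37 and 6.38 at 6 h and 4.28, 3.86 and 3.86 in control leaves. Here the 48 h arrays lay above the 6 h arrays (0.52, SE 0.18, adjusted p = 0.0602, and 0.0192 to 0.179 over the alternatives tried).

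AT3G03270 read 8.34, 8.23 and 7.24 after 48 h, 7.37, 7.04 and 7.73 after 6 h and 4.80, 4.97 and 4.55 in control. AT4G10265 read 4.85, 4.38 and 4.24 after 48 h, 4.59, 3.25 and 4.81 after 6 h and 1.77, 2.1 and 1.63 in control. The spread within a treated group was wide for both, through replicate 3 at 48 h in AT3G03270 and replicate 2 at 6 h in AT4G10265, and the treated groups overlapped. Differences from control were 3.16 and 2.61 for AT3G03270 and 2.66 and 2.38 for AT4G10265, at 48 h and 6 h in that order.

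**Figure D2:**
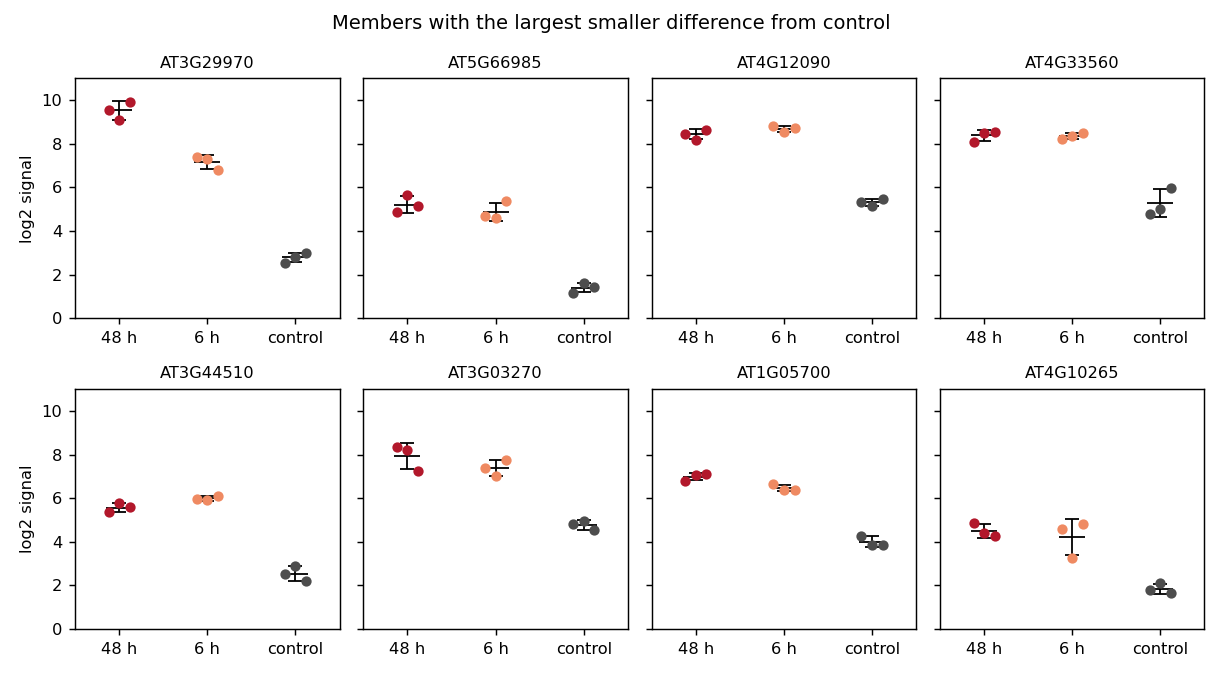
Log2 signal (vertical axis) of the 8 members with the largest smaller difference from control, in 48 h, 6 h and control leaves. Points are arrays, the horizontal bar is the mean of 3 arrays and the whiskers are 1 SD. All treated points lie above the control points, and AT3G29970 is the one with the 48 h arrays well above the 6 h arrays.

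The rule puts no condition on the difference between the treated groups, but it read the same 6 treated arrays. Its 6 h limit was met by 1087 locus-named genes and its 48 h limit by 347, so that the comparison of the times is not independent of how the members were chosen, and the shares of all genes given beside it are a background only. The 48 h mean was below the 6 h mean for 151 members and above it for 38, with a median of -0.50, against 0.02 over all genes. By limma with Benjamini-Hochberg adjustment over 16550 genes, 75 members (39.7%) were lower at 48 h than at 6 h and 13 (6.88%) were higher, where 10.7% and 9.62% of all genes were called, 20.3% in either direction. The remaining 101 were not called, with differences from -0.87 to 0.91, which does not show that they were equal. The 48 h arrays lay wholly below the 6 h arrays in 101 members, against 18.2% of all genes, and wholly above in 16, against 19.2%. The 48 h difference from control was under 50% of that at 6 h in 22 members. With a 48 h difference of at least 1 required, only the 81 members with a 6 h difference of 2 or more could show this. The counts of 13 and 75 were 16 and 56 after centring, and the 13 became 7 without 6 h replicate 1 and 8 without 48 h replicate 1.

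**Figure D3:**
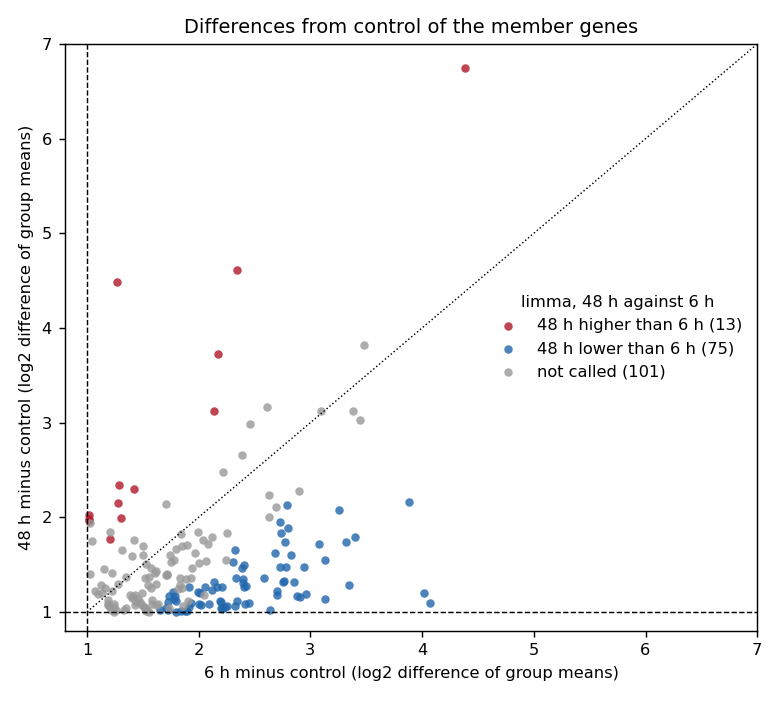
Difference from control at 48 h (vertical axis) against that at 6 h (horizontal axis) for each of the 189 genes, as log2 differences of group means, coloured by the limma call of 48 h against 6 h. Dashed lines mark the threshold of 1, the dotted line marks equal differences, and both axes share the control arrays. The 75 genes called lower at 48 h lie under the dotted line and the 13 called higher above it.

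The 6 members with the largest 48 h excess over 6 h were led by AT1G12805. It read 6.32, 6.43 and 7.21 in the 48 h leaves, 3.16, 3.54 and 3.61 in the 6 h leaves and 2.12, 2.37 and 2.01 in control leaves. Its 6 h mean was 1.27 above control and its 48 h mean 4.49 above it, a difference between the times of 3.22 (SE 0.24, limma adjusted p = 7.68e-07). AT3G29970, described above, followed with 2.36 (SE 0.23, adjusted p = 1.04e-05). AT5G10040 read 7.91, 7.17 and 7.54 at 48 h, 5.51, 5.49 and 4.79 at 6 h and 3.07, 3.07 and 2.63 in control, a stepwise order with no overlap (2.28, SE 0.24, adjusted p = 1.99e-05).

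AT2G17850 read 5.30, 5.46 and 6.17 at 48 h, 4.14, 3.80 and 4.32 at 6 h and 1.86, 2.35 and 1.54 in control. Its groups also stood in 3 separate steps (1.56, SE 0.26, limma adjusted p = 0.000724). In AT5G48430 the values were 9.43, 8.57 and 8.43 at 48 h, 7.87, 7.71 and 7.68 at 6 h and 6.51, 6.56 and 6.33 in control, with replicate 1 the highest at 48 h (1.06, adjusted p = 0.00534). AT4G08780 had 6.73, 6.95 and 6.55 at 48 h, 5.75, 5.46 and 5.99 at 6 h and 5.31, 3.97 and 4.88 in control. Its controls spread widely, and its call between the times (1.00, adjusted p = 0.0227) was lost without any 1 of 6 h replicates 1 and 2 (adjusted p = 0.0632 and 0.0995) and 48 h replicates 1 and 2 (0.0559 and 0.0869), and over all entries (0.0634).

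In the opposite direction, AT4G30020 had the largest difference. It read 4.59, 5.14 and 5.05 in the 48 h leaves, 7.82, 7.77 and 8.11 in the 6 h leaves and 3.73, 3.62 and 4.14 in control leaves. The 48 h arrays were lower than the 6 h arrays by far more than the spread of either group (-2.97, SE 0.20, limma adjusted p = 5.24e-07). AT1G23110 read 3.18, 3.0 and 3.23 at 48 h, 6.15, 5.67 and 6.01 at 6 h and 2.31, 1.76 and 1.73 in control, with the same shape (-2.81, SE 0.20, adjusted p = 6.85e-07).

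AT3G49320 had 3.41, 4.54 and 3.40 at 48 h, 5.87, 5.68 and 6.00 at 6 h and 2.72, 2.83 and 1.95 in control. One 48 h array stood more than 1 above the other two, and the groups still did not overlap (-2.07, SE 0.30, limma adjusted p = 0.000269). AT1G80130 had 8.30, 8.40 and 8.45 at 48 h, 10.44, 10.34 and 10.37 at 6 h and 7.40, 6.87 and 7.48 in control, with both treated groups held within 0.15 (-2.0, SE 0.18, adjusted p = 5.87e-06). AT2G37890 had 4.84, 4.89 and 4.75 at 48 h, 6.75, 6.59 and 6.38 at 6 h and 3.88, 3.66 and 3.46 in control (-1.75, SE 0.17, adjusted p = 1.09e-05). Its 48 h arrays lay between the other groups, nearer to control, by 1.16 at 48 h and 2.91 at 6 h. The sixth, AT3G27230, is given with its neighbours on the chromosome.

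**Figure D4:**
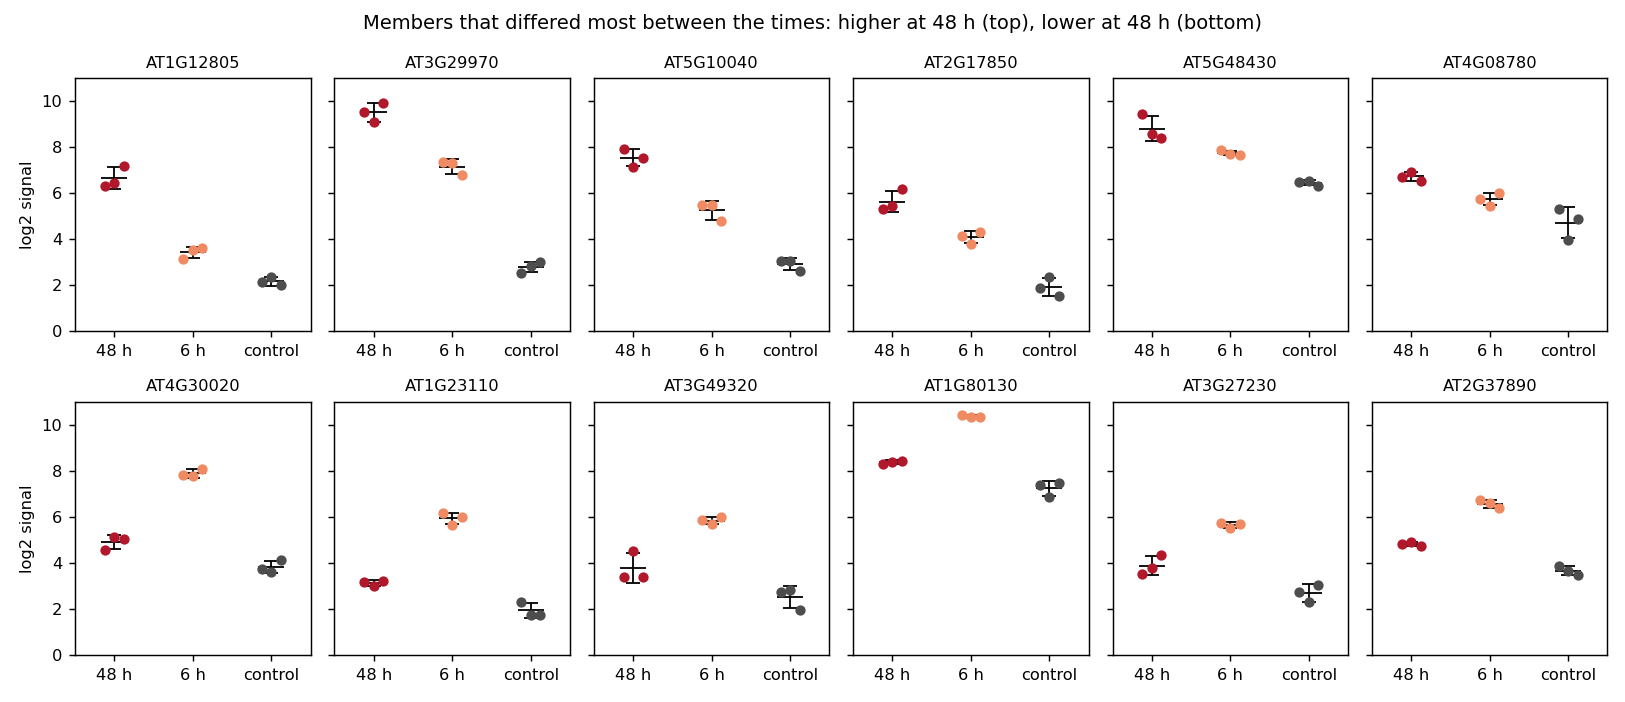
Log2 signal (vertical axis) of the 6 members with the largest positive (upper row) and the 6 with the largest negative (lower row) 48 h minus 6 h difference past the test, in 48 h, 6 h and control leaves. Points are arrays, bars are means of 3 arrays and whiskers are 1 SD. The upper genes step down from 48 h to control and the lower genes peak at 6 h.

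Of the 3 members with a descriptive name, HRA1 (AT3G10040) was the farthest from control. It read 5.35, 4.53 and 5.11 at 48 h, 5.94, 6.21 and 5.57 at 6 h and 3.0, 2.95 and 3.38 in control. The 48 h arrays lay below the 6 h arrays (-0.91, SE 0.24, limma adjusted p = 0.0144), a call lost without any 1 of 6 h replicate 1 (0.0514), 6 h replicate 2 (0.0757) and 48 h replicate 2 (0.0687). DEWAX (AT5G61590), the repressor of wax synthesis genes, read 8.56, 8.82 and 8.13 at 48 h, 8.51, 8.27 and 8.18 at 6 h and 6.85, 6.94 and 6.95 in control. Its controls lay within 0.11 of each other, and the treated groups overlapped (0.19, SE 0.19, adjusted p = 0.608). PAM16L (AT5G61880) read 5.96, 6.62 and 6.87 at 48 h, 7.01, 6.61 and 6.85 at 6 h and 5.21, 5.05 and 5.89 in control, where control replicate 3 came within 0.07 of the lowest treated array.

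Of 30 low-oxygen genes listed by locus from general knowledge, 13 were measured by an entry of their own and 7 of these were members. Of all locus-named genes, 1.28% were members. The list was chosen with earlier results of these data known, so that nothing is read from the count of 7. The 7 members are AT5G10040, AT5G66985, AT3G03270 and AT4G10265, with their values above, HRA1, AT4G24110 and AT3G27220. AT4G24110 read 4.79, 4.24 and 5.10 at 48 h, 3.94, 3.55 and 3.69 at 6 h and 1.70, 1.41 and 1.66 in control, with the 48 h arrays higher than the 6 h arrays (0.98, SE 0.22, limma adjusted p = 0.00549). AT3G27220 read 6.25, 6.48 and 5.87 at 48 h, 6.60, 6.23 and 6.23 at 6 h and 4.37, 4.52 and 4.18 in control, with overlapping treated groups. Of the 7, 3 were therefore called between the times, AT5G10040 and AT4G24110 higher at 48 h and HRA1 lower.

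The 6 measured low-oxygen genes outside the set are what the rule left. It took every locus-named gene of the list that met its limits at both times, so that the absence of such genes among the 6 is fixed by the choice, and PDC2 and CML38 carry symbols and could not be members. At 48 h, 2 were called higher and 1 lower, against 5.43% and 5.22% of all genes, and at 6 h, 2 were higher and 3 lower, against 14.2% and 13.2%. AT1G19530 read 8.99, 9.06 and 8.38 at 48 h, 3.05, 3.59 and 2.97 at 6 h and 6.56, 6.92 and 6.22 in control. It was higher than control at 48 h (2.24, limma adjusted p = 7.2e-05) and lower at 6 h (-3.36, adjusted p = 5.1e-07), so that the groups stood apart in opposite directions. AT4G17260 rose at 6 h (2.12, adjusted p = 3.99e-06) and had 0.20 at 48 h (adjusted p = 0.591). AT3G10020 fell at both times (-0.96 and -1.21, adjusted p = 0.0213 and 0.00188). PDC2, a pyruvate decarboxylase of ethanol fermentation, rose at 6 h (0.77, adjusted p = 0.00722). The calmodulin-like protein gene CML38 fell at 6 h (-0.88, adjusted p = 0.0266), and AT4G27450 rose at 48 h (0.79, adjusted p = 0.0144). Across all 13, the median difference from control was 1.88 at 48 h and 2.12 at 6 h. Across the 6 others it was 0.23 and -0.46, and the rule shaped both groups.

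**Figure D5:**
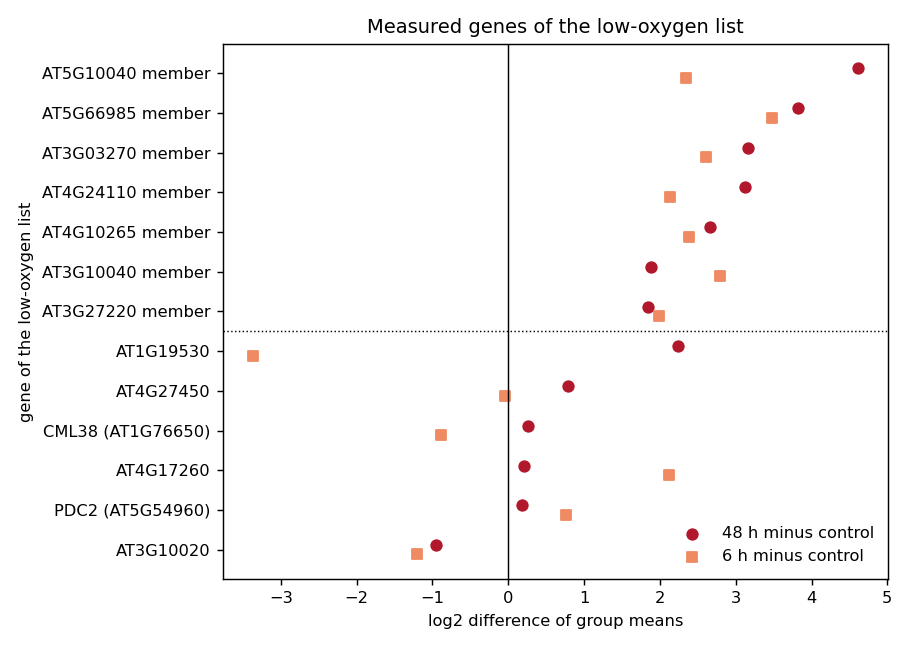
Difference from control (horizontal axis, log2 difference of group means) of the 13 measured genes of the low-oxygen list, with circles for 48 h and squares for 6 h. The 7 members stand above the dotted line, with both marks between 1.84 and 4.62, and the 6 other genes stand below it, with marks from -3.36 to 2.24.

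Other lists of responses covered early immune and wound signals (5 of 26 measured), dark and sugar starvation (2 of 18), the circadian clock (1 of 10), xenobiotic detoxification (6 of 14) and auxin response (4 of 10). Measured again means by an entry paired with that gene alone. All measured genes of these lists but AT2G04050 carry a symbol and so could not be members. Nothing is read from the absence of members. Of all genes, 5.43% were called higher and 5.22% lower at 48 h, and 14.2% and 13.2% at 6 h. Of 5 early immune genes 3 were called higher at 48 h and 4 at 6 h, and none lower. Of 6 detoxification genes 3 rose at 48 h and 1 at 6 h, where 1 fell. Both starvation genes fell at 6 h and 1 of them at 48 h. AKINBETA1, a regulatory subunit of the energy-sensing kinase SnRK1, read 10.55, 10.30 and 10.56 at 48 h, 9.03, 9.15 and 9.12 at 6 h and 11.25, 11.18 and 11.13 in control (-0.72 and -2.09 against control, limma adjusted p = 0.00973 and 6.59e-07). GI, a clock component, rose at 48 h (1.06, adjusted p = 0.005) and had -0.33 at 6 h (adjusted p = 0.282). Of 4 auxin genes 1 rose at 48 h, and 2 rose and 2 fell at 6 h.

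Among the 1805 genes with a symbol, 19 (1.05%) met the same conditions, against 1.28% of locus-named genes. Of these, 5 were on the lists above. They were the auxin-conjugating enzyme gene GH3.3, with 4.62 at 48 h and 3.78 at 6 h as log2 differences from control, the ubiquitin ligase gene PUB22 (2.44 and 2.26), the transcription factor genes WRKY29 (2.15 and 1.88) and WRKY22 (1.12 and 1.07), and the glutathione transferase gene GSTU20 (1.97 and 3.43). Between the times 2 of the 19 were called higher at 48 h and 6 lower, against 9.62% and 10.7% of all genes, and 11 were not called. The cytosolic triose phosphate isomerase TPI of glycolysis had a mean of 9.66 ± 0.10 at 48 h, 10.21 ± 0.12 at 6 h and 8.40 ± 0.09 in control (SD, n = 3), and was lower at 48 h than at 6 h (-0.55, limma adjusted p = 0.0251). YAO, a nucleolar protein, had 4.81 ± 0.35, 5.75 ± 0.38 and 3.79 ± 0.27 (SD, n = 3) in that order, and was also lower at 48 h (-0.94, adjusted p = 0.0124). The glutaredoxin GRXC2, with 6.83 ± 0.27 at 48 h, 6.79 ± 0.24 at 6 h and 5.66 ± 0.51 in control (SD, n = 3), was not called between the times (0.04, adjusted p = 0.949). The flavin monooxygenase FMO had 7.56 ± 0.20 at 48 h, 7.13 ± 0.21 at 6 h and 5.76 ± 0.13 in control (SD, n = 3), with no call between the times (0.43, adjusted p = 0.122). TPI, YAO, GRXC2 and FMO were picked after their values were seen.

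Position was not used by the rule. By locus name, 50 members lay on chromosome 1, 38 on chromosome 2, 33 on chromosome 3, 25 on chromosome 4 and 43 on chromosome 5. These were 1.30%, 1.69%, 1.09%, 1.16% and 1.25% of the locus-named genes of each, so that no chromosome held most of them. In the RefSeq gene table, assembly TAIR10.1, 3 pairs of members were direct neighbours, out of 8224 neighbouring pairs with both genes measured. Of 194 other measured genes next to a member, 6.70% were called higher at 48 h and 13.9% at 6 h by limma, against 5.43% and 14.2% of all genes, and their median differences from control were 0.04 and -0.06. Lower calls were 2.06% at 48 h and 10.3% at 6 h, against 5.22% and 13.2% of all genes. None of these differences was tested.

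The neighbour pair on chromosome 3 was AT3G27220, of the low-oxygen list, and AT3G27230. AT3G27230 read 3.53, 3.80 and 4.35 at 48 h, 5.76, 5.53 and 5.69 at 6 h and 2.75, 2.29 and 3.06 in control. It was lower at 48 h than at 6 h (-1.77, SE 0.24, limma adjusted p = 0.000134), while AT3G27220 was not called (-0.15, SE 0.20, adjusted p = 0.695). On the other side of AT3G27220, AT3G27210, which is no member, read 8.82, 9.10 and 9.45 at 48 h, 8.53, 8.42 and 8.98 at 6 h and 7.73, 7.52 and 8.30 in control. It rose at 48 h (1.27, adjusted p = 0.00382) and at 6 h (0.79, adjusted p = 0.0247), so that 3 genes in a row were above control at both times. On the far side of AT3G27230, AT3G27240 rose at 48 h (0.65, adjusted p = 0.0405) and was not called at 6 h (0.17, adjusted p = 0.548). AT3G27210 was singled out after its values were seen.

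On chromosome 1, AT1G53035 read 3.60, 3.95 and 3.80 at 48 h, 5.58, 5.27 and 5.62 at 6 h and 2.47, 3.15 and 2.21 in control. Its neighbour AT1G53040 read 6.70, 6.15 and 6.93 at 48 h, 7.36, 7.26 and 7.25 at 6 h and 5.27, 4.31 and 5.57 in control. Both had lower 48 h than 6 h arrays without overlap, called for AT1G53035 (-1.71, limma adjusted p = 0.000131) and not for AT1G53040 (-0.70, adjusted p = 0.112), whose adjusted p was 0.0252 to 0.367 over the alternatives tried and 0.0362 with the replicate block. On chromosome 5, AT5G61890 stood beside PAM16L and read 6.99, 7.46 and 7.34 at 48 h, 7.96, 7.94 and 8.26 at 6 h and 5.82, 5.78 and 6.40 in control. It was lower at 48 h than at 6 h (-0.79, adjusted p = 0.0156), a call lost without 6 h replicate 3 (0.0727) or 48 h replicate 1 (0.0733).

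The place of single arrays within their group was counted for the members. The rule read these same values, so that the shares and SDs below are not independent of it. They are a description only, beside those of all genes. The lowest 6 h array was replicate 2 for 95 members (50.3%), against 32.3% of all genes, and the lowest control array was replicate 2 for 90 members (47.6%), against 28.0% of all genes. The median SD between arrays of a group was 0.26 at 48 h, 0.15 at 6 h and 0.32 in control for members, and 0.21, 0.17 and 0.26 for all genes. Leaving out each array in turn gave 173 to 238 genes by the rule. Without control replicate 2, 44 of the 189 no longer met it, and without any other single array 1 to 22 did not.

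Some members had a second measurement that the rule did not use. A second entry for the same gene existed for 3, and its treated arrays all lay above the controls in 1 of them, AT5G01210, by 0.90 at both times, where the entry used gave 1.13 at 48 h and 1.46 at 6 h. In AT2G07739 the second entry was 0.40 and 0.41 below control at 48 h and 6 h, where the entry used gave 1.26 and 1.57. In AT1G67660 it gave 0.42 and 0.43, with overlapping groups. A further 4 entries were shared between a member and other genes. None of these had all treated arrays above control, and the differences from control at 48 h and 6 h were -0.88 and 0.45 for the one shared by AT1G19710 and AT1G19715, and 0.03 and -0.75 for the one shared by AT3G04550 and AT3G04560. The entries shared by AT2G07739 and ycf1 gave -0.16 at 48 h and 0.64 at 6 h, and -0.15 and 0.62. For AT2G07739, AT1G67660, AT1G19710 and AT3G04550 the difference therefore rests on the entry with the highest mean signal or on the one paired with that gene alone. The second entry of AT1G67660 was low, at 0.97 to 2.52 on all arrays. The entry shared by AT1G19710 and AT1G19715 read 5.70 to 7.40, and that of AT1G19710 alone 1.99 to 4.39. A shared entry does not tell its genes apart.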

How the data were processed

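Total RNA of 9 samples, 3 per group, was hybridized to 1 Affymetrix array each. The authors deposited log2 values per probe set, which the submitters' processing notes connect with oligo, RMA and limma, without versions. That the scale is log2 follows from the range of the values. The genome build: not given in the sources used here. Precision is limited by the number of arrays. Of 38408 entries, 16722 were paired with 1 gene, 759 with several and 20927 were not listed. The highest-mean entry per gene left 16550 genes with no filter on level. limma 3.58.1 (R 4.3.3) estimated the 3 group means from the 9 arrays together (lmFit, eBayes, two-sided, Benjamini-Hochberg over 16550 genes, called at 0.05), checked on simulated data. RMA compresses differences of low signals, and close gene copies may share probes.

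Members and gene lists were chosen with earlier results of these data known. Members named are those with the largest smaller difference (8), the largest 48 h minus 6 h difference (6 each way), those nearest the threshold (3 each side), neighbours and list members; others are marked as picked after their values were seen. A split by role was planned and is void, since 3 of 189 members had a descriptive name. Promoter and protein sequences were not used here.

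Same-numbered replicates were checked for pairing by the correlation of their deviations from group means. These were 0.30, 0.24 and 0.54 for 48 h and control, each above 0.1. They were 0.10, -0.05 and -0.01 for 48 h and 6 h, and 0.03, -0.03 and 0.01 for 6 h and control. Same-numbered 48 h and control arrays thus deviated alike in part and may be paired. The fit behind the 48 h against control p-values takes no account of this. What equal numbers share is not stated in the labels. Alternatives were centring, renewed quantile normalization, a low-signal filter, an intensity trend, array weights, a replicate block, fits to 2 groups or to all entries, stricter thresholds and leaving out arrays.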

Additional observations from a re-analysis of the deposited data

Results flagged for a closer look

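The signal differed between 48 h and 6 h for 88 members by limma, with 13 higher and 75 lower at 48 h. The treated leaves also differed in their time in the dark, in the medium and since cutting. These times cannot be told apart from their time with BrvC. Among the members named, those higher at 48 h were AT1G12805 (3.22), AT3G29970 (2.36), AT5G10040 (2.28), AT2G17850 (1.56), AT5G48430 (1.06), AT4G08780 (1.00) and AT4G24110 (0.98), as log2 differences of 48 h minus 6 h. Those lower at 48 h were AT4G30020 (-2.97), AT1G23110 (-2.81), AT3G49320 (-2.07), AT1G80130 (-2.0), AT3G27230 (-1.77), AT2G37890 (-1.75), AT1G53035 (-1.71), HRA1 or AT3G10040 (-0.91), AT1G14060 (-0.80) and AT5G61890 (-0.79). With 3 arrays per group, no group was large enough for a check of single outlying arrays.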

How the results depend on the processing

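The number of genes that met the rule was 95 after centring, 119 after renewed quantile normalization, 51 with a difference of at least 1.5, 573 with at least 1.5-fold, and 173 to 238 when single arrays were left out. Members called higher and lower at 48 h than at 6 h numbered 13 and 75. They were 7 and 47 at an adjusted p of 0.01, 7 to 15 and 54 to 82 without single arrays, and 14 and 83 with the replicate block, which pairs 48 h and 6 h arrays by number alone. Below, counts of calls over all entries are out of 38408 entries and the other counts of calls out of 16550 genes. The former cannot be compared with the latter as numbers. Among all genes, 48 h against 6 h gave 1592 higher and 1764 lower calls, with 2445 higher after centring, 2514 and 3561 over all entries, 948 and 1135 at 0.01, and 1109 to 1839 and 1361 to 1929 without single arrays. At 48 h against control, 898 and 864 became 510 and 1700 after centring, 2274 and 1550 over all entries, 433 and 488 at 0.01, and 627 to 1059 and 629 to 1079 without single arrays. With the replicate block, which joins same-numbered arrays of all 3 groups, they were 1075 and 1059. At 6 h against control, 2351 and 2180 became 1440 and 6868 after centring, 6707 and 3777 over all entries, and 1946 to 2373 and 1629 to 2361 without single arrays. Its lower calls were 3488 after renewed quantile normalization and 1395 at 0.01. The cause was not tested. Of 536 recalculated differences of the 30 members named, 511 stayed on the same side of the threshold, 13 lost and 12 gained a call, and none that was called changed direction. Neighbouring member pairs were 3 also over protein-coding genes alone, an alternative chosen after seeing the data. The planned promoter alternatives were not run, since no promoter sequence was used here. Compressed low signals limit the size of differences. A control mean below the median control mean of all genes was found in 53 members (28%), AT3G29970 and AT5G66985 among them. That is a smaller share than the median sets for all genes.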

Other observations

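Of 20927 entries of the value table with no gene listed, 1207 (5.77%) met the same numerical conditions as the members, against 1.28% of locus-named genes. Of 759 entries shared by several genes, 16 (2.11%) did. The unlisted entries are unnamed here, and no test was made of the difference.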
